A study of Mus musculus with 13 samples.

Results

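The miR-10, miR-99/100 and miR-125 families were followed in mouse plasma through 7 mature miRNAs: mmu-miR-10a-5p, mmu-miR-10b-5p, mmu-miR-99a-5p, mmu-miR-99b-5p, mmu-miR-100-5p, mmu-miR-125a-5p and mmu-miR-125b-5p. They were chosen by name, as 7 of the 1907 mature miRNAs in the table of raw counts, and all 7 passed the filter on low counts, which kept 368 miRNAs for testing. Plasma came from 13 male mice, each sequenced as its own small RNA library. The Givinostat group held 3 mdx mice (numbers 31, 34 and 35) given the histone deacetylase inhibitor Givinostat by gavage at 37.5 mg/kg, 5 days per week for 15 weeks. The vehicle group held 4 mdx mice (40, 41, 42 and 43) given the methylcellulose carrier on the same schedule. The naive mdx group held 3 mdx mice (36, 37 and 39) and the naive wt group 3 wild-type mice (86, 89 and 95), neither of them dosed. All mdx mice carry the Dmd mdx allele in every cell (C57BL/10ScSn-Dmdmdx/J in the study's methods). Because naive mdx mice were not dosed, vehicle differs from naive mdx by handling as well as by the carrier. The strain label reads C57BL/10J for all 13 mice, and the groups were taken from the sample titles.

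A miRNA hairpin is cut into a 5p and a 3p arm, and bases 2 to 8 of the mature arm, the seed, carry most of the pairing with target messages. The genes for miR-10a and miR-10b lie inside the Hox clusters, and those for miR-99, miR-100 and miR-125 lie in paralogous clusters with a let-7 hairpin between them. The worm relative of miR-125 is lin-4, a regulator of developmental timing. In mammalian cells miR-99/100 is known to act on Mtor and Igf1r messages, and in mouse muscle miR-125b is known to hold back Igf2 during differentiation.

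The mature sequences of all 7 were found in RefSeq (GRCm38.p6) and are shown because the families are defined by the seed, in capitals, while their members are told apart by few bases.
mmu-miR-10a-5p: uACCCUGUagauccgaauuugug
mmu-miR-10b-5p: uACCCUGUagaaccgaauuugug
mmu-miR-99a-5p: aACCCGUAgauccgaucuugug
mmu-miR-99b-5p: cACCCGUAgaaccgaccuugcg
mmu-miR-100-5p: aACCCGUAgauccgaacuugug
mmu-miR-125a-5p: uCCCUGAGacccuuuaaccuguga
mmu-miR-125b-5p: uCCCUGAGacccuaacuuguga
The 3 seeds are ACCCUGU for miR-10, ACCCGUA for miR-99/100 and CCCUGAG for miR-125. Among the 1738 mature entries of the RefSeq table, no other name shared the miR-10 or the miR-99/100 seed, whereas mmu-miR-351-5p, mmu-miR-6367 and mmu-miR-6394 shared that of miR-125. Counting from 1 at the 5′ end, mmu-miR-10b-5p differs from mmu-miR-10a-5p by U12A alone, and mmu-miR-100-5p differs from mmu-miR-99a-5p by U16A alone. mmu-miR-99b-5p differs from mmu-miR-99a-5p by A1C, U11A, U16C and U21C. The counts within the pairs that differ by 1 base rest on reading that base correctly, which was not tested.

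The 7 miRNAs come from 8 hairpins, all on the plus strand of GRCm38. On chromosome 9, mmu-miR-100-5p (chr9:41531437-41531458) and the Mir125b-1 copy of mmu-miR-125b-5p (chr9:41581940-41581961) lie in introns of the noncoding transcripts 3110039I08Rik and Gm49317, with Mirlet7a-2 between them. On chromosome 16, mmu-miR-99a-5p (chr16:77598940-77598961) and the Mir125b-2 copy of mmu-miR-125b-5p (chr16:77646279-77646300) lie in introns of the noncoding Mir99ahg, with Mirlet7c-1 between them. On chromosome 17, mmu-miR-99b-5p (chr17:17830194-17830215) lies in an intron of Spaca6 and mmu-miR-125a-5p (chr17:17830817-17830840) overlaps an annotated exon of the same gene, with Mirlet7e between them. mmu-miR-10b-5p (chr2:74726074-74726096) lies in introns of Hoxd3 and Hoxd4. mmu-miR-10a-5p (chr11:96317186-96317208) has no host gene on its strand, and Hoxb4 is the nearest coding gene at 1059 bases. mmu-miR-125b-5p has the same sequence from both of its hairpins, so its count cannot be divided between them.

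The library totals ran between 1167161 and 2899315 counts, and naive wt mice 86 and 95 had the largest. Plasma small RNA is a share-based measurement, and the makeup of the libraries differed strongly between the genotypes. All 7 muscle miRNAs on a fixed list (miR-206, miR-1a, the miR-133 arms, miR-208b and miR-499) had counts in every mouse. Together they held 38.0 to 46.7% of the counts in Givinostat mice, 35.5 to 42.6% in vehicle mice and 28.3 to 39.7% in naive mdx mice, against 0.707 to 2.09% in naive wt mice. All 4 liver miRNAs (both miR-122 arms, miR-192 and miR-194) also had counts in every mouse, with 3.36 to 6.69% of the counts in Givinostat, 3.29 to 16.6% in vehicle and 1.91 to 11.4% in naive mdx mice, against 38.8 to 65.5% in naive wt mice. Levels are given below as CPM, the counts of a miRNA relative to its library's total, after scaling the totals by the trimmed mean of M-values (TMM), a correction for shifts in makeup. In plasma, fewer cells releasing a miRNA and less of it per cell cannot be told apart.

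The 7 miRNAs together held a similar range of the plasma pool in all groups. Their summed share of all counts was 9.59, 8.42 and 7.95% in Givinostat mice, 9.19, 7.05, 7.11 and 11.2% in vehicle mice, 10.8, 8.43 and 8.58% in naive mdx mice and 7.25, 9.80 and 6.45% in naive wt mice. The ranges of all groups overlapped. The 10 mdx mice averaged 8.83 ± 1.39% and the 3 naive wt mice 7.83 ± 1.75% (SD), and the difference did not pass a two-sided exact permutation test (p = 0.343, adjusted p = 0.8 over 4 comparisons). Naive mdx against naive wt gave p = 0.4, vehicle against naive mdx p = 0.629 and Givinostat against vehicle p = 0.971 in the same exact test. The direction depended on the denominator. With miR-122-5p taken out of the totals, the share was 7.52 to 11.6% in mdx mice against 15.7 to 18.2% in naive wt mice (exact permutation p = 0.00699, the smallest it can give, adjusted p = 0.0280). Before that removal the ranges were 7.05 to 11.2% and 6.45 to 9.80%. Removing this miRNA, high in naive wt libraries, raised mainly the naive wt share, so this p gives no result about the 7 miRNAs. With the muscle and liver lists taken out, the share was 12.9 to 18.4% in mdx mice against 16.6 to 19.2% in naive wt mice. These ranges overlapped, and the difference did not pass (exact permutation p = 0.0350, adjusted p = 0.140).

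Within this pool mmu-miR-99a-5p led by a wide margin. It ranked between place 2 and place 6 among all miRNAs of a library and held 42.2 to 65.6% of the counts of the 7. mmu-miR-10b-5p ranked between 6 and 17, mmu-miR-10a-5p between 10 and 28, mmu-miR-100-5p between 20 and 46, mmu-miR-125b-5p between 33 and 54, mmu-miR-99b-5p between 43 and 56 and mmu-miR-125a-5p between 48 and 84. The lowest raw count of any of the 7 in any library was 873, for mmu-miR-125a-5p in Givinostat mouse 34. Counting error at such counts is small beside the spread between mice, which set the precision.

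**Figure D1:**
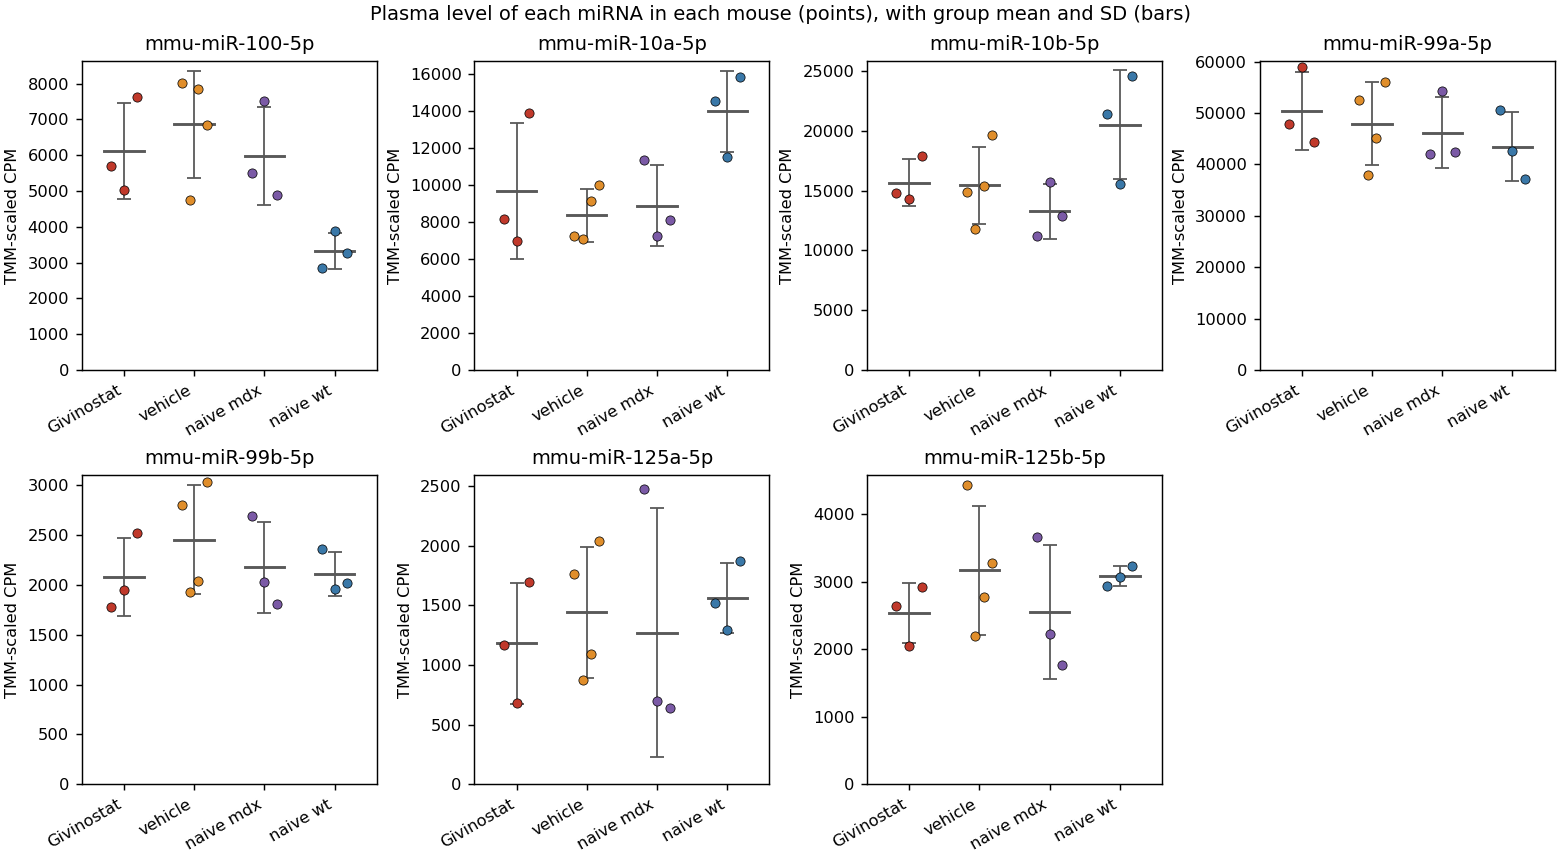
TMM-scaled CPM (vertical axes, from 0) of the 7 miRNAs in each of the 13 mice, as points, with group means and SD as bars, for Givinostat, vehicle, naive mdx and naive wt mice. The mmu-miR-100-5p points of the 10 mdx mice start at 4756 CPM and all lie above those of naive wt mice, which end at 3871 CPM, whereas mmu-miR-99a-5p and mmu-miR-99b-5p overlap between all groups.

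Among the 7, only mmu-miR-100-5p was called in all 3 mdx groups against naive wt mice. It had 5705, 5042 and 7621 CPM in Givinostat mice, 8006, 4756, 7835 and 6829 CPM in vehicle mice and 5503, 7506 and 4897 CPM in naive mdx mice, against 2859, 3871 and 3256 CPM in naive wt mice. On this TMM scale all 10 mdx mice stood above all 3 naive wt mice, and the mdx groups overlapped one another. With library totals Givinostat mouse 34 (4716 CPM) lay just below naive wt mouse 89 (4745 CPM). Naive mdx mice averaged 5968 ± 1366 CPM and naive wt mice 3329 ± 510 CPM (SD, n = 3 each). In edgeR's quasi-likelihood test, with Benjamini-Hochberg adjustment over the 368 miRNAs, mmu-miR-100-5p was 1.79-fold higher in naive mdx than in naive wt mice (log2 fold change 0.84, SE 0.26, adjusted p = 0.0159). The adjusted p reached 0.0959 without naive mdx mouse 37, 0.0822 without naive wt mouse 86 and 0.0613 without naive wt mouse 95, with log2 fold changes of 0.64, 0.71 and 0.84. It was also 0.0548 with no filter on low counts, 0.0732 when only these 2 groups were fitted and 0.0707 with upper-quartile scaling. Over 17 alternatives it ran between 0.00767 and 0.0959, and the log2 fold change between 0.61 and 1.22.

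The same miRNA was higher in both dosed mdx groups. Vehicle mice, at 6856 ± 1494 CPM (SD, n = 4), exceeded naive wt mice 2.06-fold (log2 fold change 1.04, SE 0.25, edgeR adjusted p = 0.00282), and all 18 alternatives kept this call, with an adjusted p of at most 0.0222. Givinostat mice, at 6122 ± 1339 CPM (SD, n = 3), exceeded naive wt mice 1.84-fold (log2 fold change 0.88, SE 0.26, edgeR adjusted p = 0.0166). That call was lost without Givinostat mouse 35 (adjusted p = 0.124), naive wt mouse 86 (0.0824) or naive wt mouse 95 (0.0629). These 3 comparisons share the naive wt mice and are not independent of each other.

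Both miR-10 miRNAs, which are encoded among Hox genes, had their highest group mean in naive wt mice. mmu-miR-10a-5p had 8191, 6972 and 13878 CPM in Givinostat mice, 7228, 7078, 9132 and 10019.7 CPM in vehicle mice and 11343, 7227 and 8109 CPM in naive mdx mice, against 14531, 11545 and 15865 CPM in naive wt mice. On this TMM scale all vehicle and naive mdx mice fell below all naive wt mice, and Givinostat mouse 35 lay within the naive wt range. With library totals the groups overlapped. Naive mdx mouse 36 then had 15515 CPM and vehicle mouse 43 had 11135.5 CPM, against 10960, 14152 and 11631 CPM in naive wt mice. mmu-miR-10a-5p fell by 0.74 on the log2 scale in vehicle against naive wt mice (SE 0.26, edgeR adjusted p = 0.0284). This call was kept in 8 of 18 alternatives. It was lost without vehicle mouse 40, 41 or 43 (adjusted p = 0.190, 0.163 and 0.0714), without naive wt mouse 86 or 95 (0.0794 and 0.155), with library totals in place of TMM (0.177), with no filter (0.0763), with DESeq2 (0.0600) and with limma on the deposited log2 values (at least 0.168). Those deposited values are scaled by totals too, so the limma losses are not separate from that with library totals.

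In the other comparisons with naive wt mice the miR-10 values did not pass the test. The log2 fold change of mmu-miR-10a-5p was -0.65 in naive mdx mice (SE 0.28, adjusted p = 0.0688) and -0.53 in Givinostat mice (SE 0.28, adjusted p = 0.156). Without Givinostat mouse 35 the second of these became -0.92 (adjusted p = 0.0277). mmu-miR-10b-5p had 14833, 14278 and 17891 CPM in Givinostat mice, 14882, 11810 (vehicle mouse 41), 15345 and 19677 CPM in vehicle mice and 11197, 15752 and 12887 CPM in naive mdx mice, against 21432, 15541 and 24588 CPM in naive wt mice. Naive wt mouse 89 lay within the range of every mdx group. Its log2 fold change was -0.63 in naive mdx (SE 0.25, adjusted p = 0.0540), -0.41 in vehicle (SE 0.23, adjusted p = 0.148) and -0.39 in Givinostat mice (SE 0.25, adjusted p = 0.237). The first passed in 4 of 17 alternatives, among them that without naive wt mouse 89 (log2 fold change -0.80, adjusted p = 0.0457). Scaling moved the sizes and the calls and left the sign: against naive wt, naive mdx mice had log2 fold changes of -0.20 for mmu-miR-10a-5p and -0.23 for mmu-miR-10b-5p with library totals. With upper-quartile factors both passed in naive mdx mice, at -0.90 for mmu-miR-10a-5p (adjusted p = 0.0218) and -0.88 for mmu-miR-10b-5p (adjusted p = 0.0142), and mmu-miR-10b-5p passed in vehicle mice at -0.64 (adjusted p = 0.0386).

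The other miRNAs with the miR-100 seed did not pass the test in naive mdx against naive wt mice. mmu-miR-99a-5p, which differs from it by 1 base, had 47904, 58989 and 44421 CPM in Givinostat mice, 52539, 37913, 45048 and 56023 CPM in vehicle mice and 41951, 54213 and 42446 CPM in naive mdx mice, against 50501, 42653 and 37167 CPM in naive wt mice. Every group overlapped every other. The log2 fold change in naive mdx against naive wt mice was 0.09 (95% interval -0.42 to 0.60, adjusted p = 0.777), and it turned to -0.14 with upper-quartile factors. mmu-miR-99b-5p, from the chromosome 17 cluster, lay between 1776 and 2518 CPM in Givinostat, 1931 and 3035 CPM in vehicle and 1805 and 2691 CPM in naive mdx mice, against 1955 and 2363 CPM in naive wt mice. Its log2 fold change in naive mdx against naive wt mice was 0.04 (95% interval -0.48 to 0.56, adjusted p = 0.900), with -0.20 under upper-quartile factors. The 0.84 of mmu-miR-100-5p lies above the upper ends of both intervals, but its own 95% interval starts at 0.29 and overlaps both. These intervals therefore do not decide whether mmu-miR-100-5p differs from its relatives. The ratios within libraries given below compare the relatives directly, and none of them passed after adjustment over 24 tests. Most of those tests could not pass. The exact permutation p cannot go below 0.1 for 3 against 3 mice or 0.0571 for 3 against 4. The ratios therefore do not decide it either.

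The miR-125 miRNAs are the relatives of lin-4, and neither passed the test against naive wt mice. mmu-miR-125a-5p had 1164, 684 and 1697 CPM in Givinostat mice, 1759, 872, 1096 and 2036 CPM in vehicle mice and 2478, 700.1 and 636 CPM in naive mdx mice, against 1519, 1291 and 1869 CPM in naive wt mice. Naive mdx mouse 36 lay above every other mouse of the series, and the remaining naive mdx mice 37 and 39 lay below all naive wt mice. The log2 fold change in naive mdx against naive wt mice was -0.29 (SE 0.46, adjusted p = 0.604), +0.23 with library totals and -1.20 without mouse 36 (adjusted p = 0.0291). mmu-miR-125b-5p lay between 2048 and 2919 CPM in Givinostat, 2190 (vehicle mouse 41) and 4435 CPM in vehicle and 1772 and 3663 CPM in naive mdx mice, against 2939 and 3239 CPM in naive wt mice. Its log2 fold change in naive mdx against naive wt mice was -0.27 (SE 0.29, adjusted p = 0.446), +0.14 with library totals. Mouse 36 was the highest naive mdx mouse for both miR-125 miRNAs, for mmu-miR-99b-5p and for mmu-miR-10a-5p.

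By count, 1 of the 7 miRNAs was called higher in naive mdx against naive wt mice, where 26.9% of all 368 tested miRNAs were, and 0 were called lower, where 16.6% were. In vehicle against naive wt mice 1 of 7 was called higher (24.2% of all) and 1 lower (23.1% of all). In Givinostat against naive wt mice 1 of 7 was called higher (22.6% of all) and 0 lower (11.7% of all). At an unadjusted p under 0.05, 2 of the 7 (both miR-10 miRNAs) were lower in naive mdx mice, where 23.4% of all miRNAs were, and 0 in Givinostat mice, where 18.8% were. The TMM-scaled CPM of 2 of the 7 did not overlap between the groups in each of these comparisons. The share of all miRNAs was 57.6% for naive mdx, 52.2% for vehicle and 53.8% for Givinostat. The 2 were mmu-miR-100-5p and mmu-miR-10a-5p in the comparisons of naive mdx and vehicle mice, and mmu-miR-100-5p and mmu-miR-125b-5p (lower) in that of Givinostat mice. The shares of the 7 that were called lie near or below these backgrounds, so the counts mark no result about the families as a whole. The median log2 fold change of the 7 was -0.27 in naive mdx, 0.04 in vehicle and -0.28 in Givinostat against naive wt mice, beside 0.04, -0.11 and -0.10 over all tested miRNAs. The split of calls over all miRNAs moved with the scaling: 99 higher and 61 lower in naive mdx mice became 118 and 23 with library totals and 82 and 96 with upper-quartile factors, as the median shifted by 0.37 and -0.22 on the log2 scale. In vehicle mice 89 and 85 became 88 and 44 with library totals and 76 and 109 with upper-quartile factors, and in Givinostat mice 83 and 43 became 77 and 18 with library totals.

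**Figure D2:**
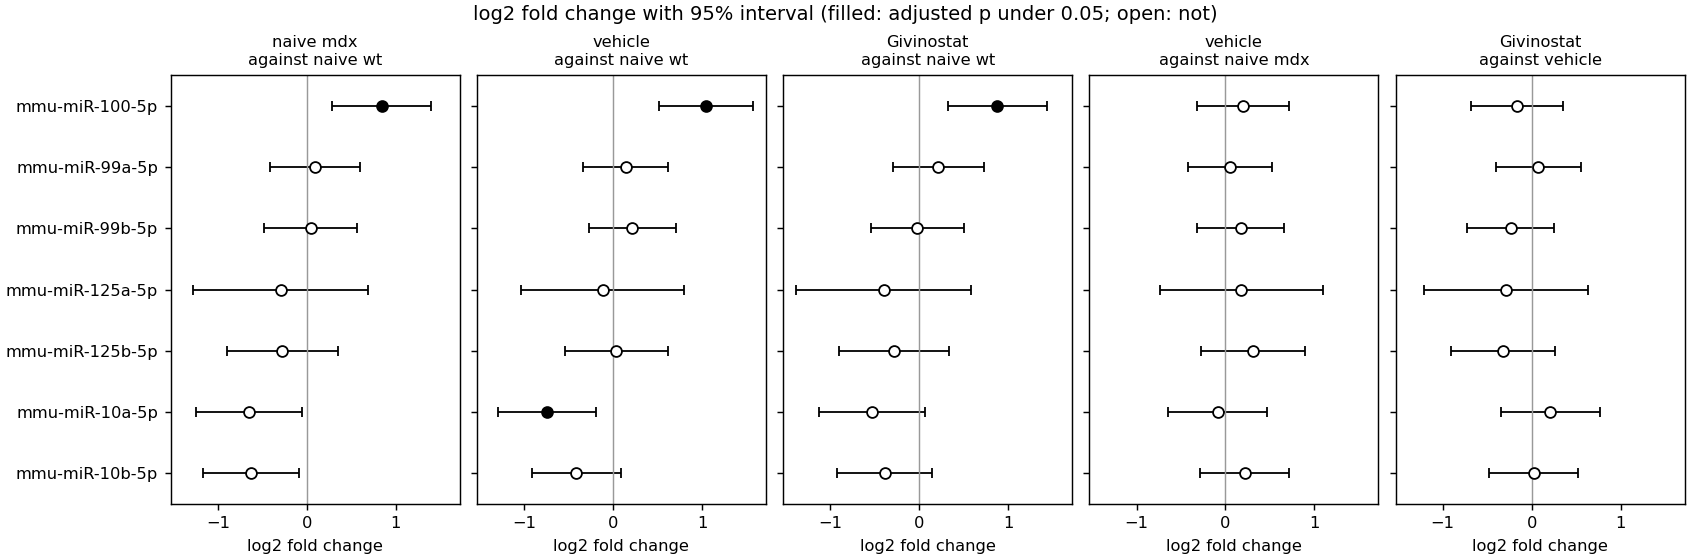
log2 fold change (horizontal axes) of the 7 miRNAs in 5 comparisons, with the first-named group over the second, as points with 95% intervals from edgeR; filled points have an adjusted p under 0.05 over 368 miRNAs. mmu-miR-100-5p is filled in the 3 comparisons with naive wt mice (0.84, 1.04 and 0.88) and mmu-miR-10a-5p in that of vehicle mice (-0.74), and no point is filled on the right, where mdx groups are compared.

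Givinostat against vehicle asks what the drug did, and 0 of the 7 miRNAs passed the test in either direction (0.272% of all miRNAs were called higher and 0% lower). None of the 7 had an unadjusted p under 0.05, where 4.08% of all miRNAs had one upward and 2.72% downward. None of the 7 passed in any of the 18 alternatives, DESeq2 included, which called 2 of all miRNAs higher and 0 lower. Groups overlapped for all 7, where 7.61% of all miRNAs did not overlap. The log2 fold change was 0.21 for mmu-miR-10a-5p (95% interval -0.34 to 0.77), 0.02 for mmu-miR-10b-5p (-0.48 to 0.52) and 0.08 for mmu-miR-99a-5p (-0.40 to 0.55). It was -0.24 for mmu-miR-99b-5p (-0.73 to 0.25), -0.16 for mmu-miR-100-5p (-0.68 to 0.35), -0.29 for mmu-miR-125a-5p (-1.21 to 0.64) and -0.32 for mmu-miR-125b-5p (-0.90 to 0.26). The adjusted p was at least 0.823. Differences inside these intervals were not excluded by the fit, and the interval of mmu-miR-125a-5p is the widest.

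Vehicle against naive mdx asks what dosing itself did, and here too 0 of the 7 passed the edgeR test (0% of all miRNAs were called higher and 0% lower), with no unadjusted p under 0.05 among them and no call in DESeq2. Before adjustment, a p under 0.05 was reached by 10 of the 368 miRNAs upward (2.72%) and 7 downward (1.9%). No member had groups without overlap, against 2.17% of all miRNAs. The log2 fold changes lay between -0.09 for mmu-miR-10a-5p and 0.31 for mmu-miR-125b-5p, with 0.20 (95% interval -0.32 to 0.72) for mmu-miR-100-5p and 0.22 (-0.28 to 0.72) for mmu-miR-10b-5p.

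A ratio of 2 miRNAs of the same library does not depend on how libraries are scaled, and 6 such ratios were taken on raw counts with a pseudocount of 0.5. The log2 ratio of mmu-miR-99b-5p to mmu-miR-100-5p was -1.68, -1.37 and -1.6 in Givinostat mice, -1.51, -1.30, -1.94 and -1.17 in vehicle mice and -1.03, -1.89 and -1.44 in naive mdx mice, against -0.27, -0.99 and -0.69 in naive wt mice. All 10 mdx mice lay below all naive wt mice, with naive mdx mouse 36 close to naive wt mouse 89. The difference was -0.84 (10 mdx mice against 3 naive wt, exact permutation test, two-sided, p = 0.00699, which is the lowest value 10 against 3 can reach; adjusted p = 0.0839 over 24 tests). For mmu-miR-99a-5p over mmu-miR-100-5p the log2 ratio averaged 2.93 ± 0.30 in the 10 mdx mice and 3.71 ± 0.38 in the 3 naive wt mice (SD), a difference of -0.77 (exact permutation p = 0.0210, adjusted p = 0.168). Only Givinostat mouse 34, at 3.55, lay within the naive wt range. Without naive wt mouse 86 the difference was -0.55. The 10 mdx mice pool dosed and undosed animals. Naive mdx against naive wt mice alone differed by -0.80 for mmu-miR-99b-5p and by -0.74 for mmu-miR-99a-5p over mmu-miR-100-5p. Each had an exact permutation p of 0.1 (adjusted p = 0.343).

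The miR-99a hairpin shares its cluster with a let-7c hairpin. The log2 ratio of mmu-miR-99a-5p to mmu-let-7c-5p was 1.24, 1.38 and 1.27 in Givinostat mice, 1.27, 0.83, 1.56 and 1.54 in vehicle mice and 1.6, 1.85 and 1.80 in naive mdx mice, against 0.72, 0.41 and 0.24 in naive wt mice. The mdx and naive wt mice did not overlap. The difference over the 10 mdx mice, which pool dosed and undosed animals, was 0.98 (exact permutation p = 0.00699, the smallest it can give, adjusted p = 0.0839). Naive mdx against naive wt mice alone differed by 1.29 (exact permutation p = 0.1, adjusted p = 0.343). In vehicle against naive mdx mice the groups did not overlap either, with a difference of -0.45 (exact permutation p = 0.0571, the smallest that 4 against 3 mice allow, adjusted p = 0.343). mmu-let-7c-5p is also made from a further hairpin, so its count is not that of Mirlet7c-1 alone.

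The remaining ratios overlapped between mdx and naive wt mice. mmu-miR-10b-5p over mmu-miR-10a-5p differed by 0.21 on the log2 scale between the 10 mdx and the 3 naive wt mice (exact permutation p = 0.336), mmu-miR-125a-5p over mmu-miR-125b-5p by -0.19 (p = 0.455) and mmu-miR-99b-5p over its cluster partner mmu-miR-125a-5p by 0.46 (p = 0.168). The adjusted p was at least 0.503 for these. None of the 24 tests passed after adjustment, and 3 had a p under 0.05 before it. Tests of 3 against 3 mice cannot go below 0.1, and those of 3 against 4 cannot go below 0.0571. Only the comparisons of 10 against 3 mice could therefore pass. Naive mdx mouse 36 again stood apart, with the lowest log2 ratio of mmu-miR-10b-5p to mmu-miR-10a-5p in the series (-0.02, against 1.12 and 0.67 in naive mdx mice 37 and 39).

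**Figure D3:**
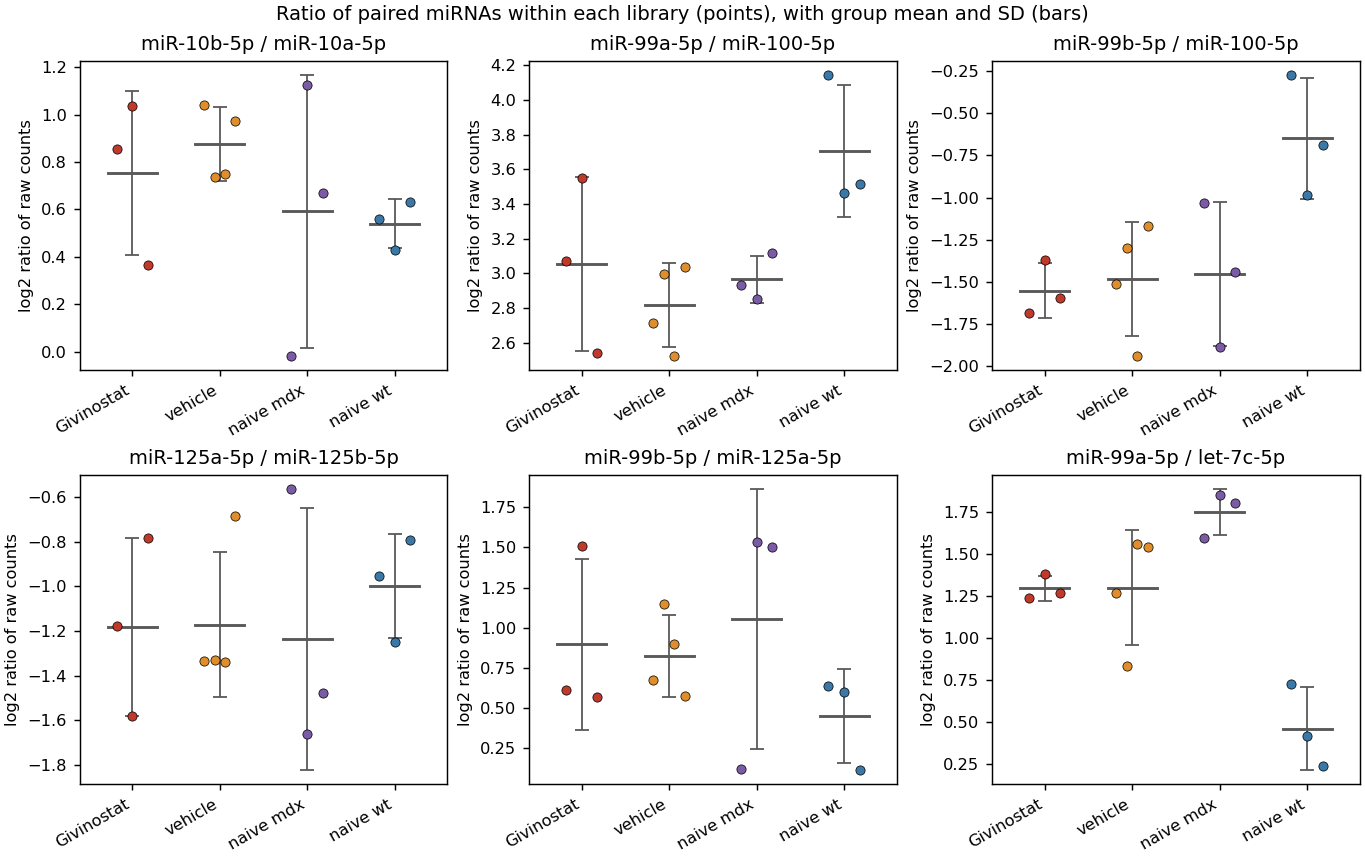
log2 ratio of raw counts (vertical axes) for 6 pairs of miRNAs in each mouse, as points, with group means and SD as bars, for Givinostat, vehicle, naive mdx and naive wt mice. For miR-99b-5p over miR-100-5p the 10 mdx mice lie at or below -1.03 and the naive wt mice at or above -0.99, and for miR-99a-5p over let-7c-5p the 10 mdx mice lie at or above 0.83 and the naive wt mice at or below 0.72.

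The other arms of the same hairpins were also followed. Of 8 such arms, 6 passed the filter on low counts and 0 were called by edgeR in any of the 5 comparisons. In vehicle against naive wt mice 2 were called without vehicle mouse 40, 2 without vehicle mouse 41, 1 without naive wt mouse 86 and 1 when only these 2 groups were fitted. In naive mdx against naive wt mice the median log2 fold change of these 6 was 0.32, with a range of -0.12 to 0.83. The 3p arms of miR-125b tell its hairpins apart. For mmu-miR-125b-2-3p, from chromosome 16, naive mdx against naive wt mice gave 0.83 on the log2 scale (SE 0.38, adjusted p = 0.0854), and 1.13 with library totals (adjusted p = 0.0440). For mmu-miR-125b-1-3p, from chromosome 9, it was 0.53 (SE 0.29, adjusted p = 0.144). The arm from chromosome 16 had 24.4, 76.4 and 40.7 CPM in naive mdx mice, against 27.2, 24.8 and 27.3 CPM in naive wt mice. Without naive mdx mouse 36, the only one of the 3 below naive wt, it passed the test (log2 fold change 1.16, adjusted p = 0.0144), and without naive mdx mouse 37, the highest, the log2 fold change was 0.32 (adjusted p = 0.491). For mmu-miR-10b-3p the log2 fold change was 0.31 (SE 0.28, adjusted p = 0.367), beside -0.63 for its 5p arm. The difference between the arms was not tested.

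The let-7 5p arms of the 3 clusters, whose family is known for its part in differentiation, were lower in mdx plasma. Of 6 listed arms 5 were tested, and in each of the 3 comparisons with naive wt mice 3 were called lower and 0 higher. Of all 368 miRNAs, 16.6% were called lower in naive mdx, 23.1% in vehicle and 11.7% in Givinostat mice. The shares called higher were 26.9%, 24.2% and 22.6% in the same order. mmu-let-7a-5p had 1676, 1704 and 2268 CPM in naive mdx mice, against 5106, 5663 and 4872 CPM in naive wt mice. It was thus 2.77-fold lower (log2 fold change -1.47, SE 0.25, adjusted p = 0.000161), and this call held in all 17 alternatives. mmu-let-7c-5p had 13877, 14989.9 and 12165 CPM in naive mdx mice, against 30564, 31996 and 31542 CPM in naive wt mice (log2 fold change -1.20, SE 0.22, adjusted p = 0.000366). mmu-let-7e-5p averaged 34.4 ± 11.2 CPM in naive mdx and 96.7 ± 29.9 CPM in naive wt mice (SD, n = 3 each; log2 fold change -1.48, SE 0.36, adjusted p = 0.00330). With limma on the deposited log2 values the mmu-let-7e-5p call was lost at pseudocounts 1 and 5 (adjusted p = 0.0692 and 0.0642). The mmu-let-7c-5p call was lost at pseudocount 5 (adjusted p = 0.0503). The 3p arm mmu-let-7e-3p stood at -0.17 on the log2 scale (SE 0.39, adjusted p = 0.733), and mmu-let-7c-1-3p at 0.88 (adjusted p = 0.0563). In Givinostat against naive wt mice, the mmu-let-7c-5p call (log2 fold change -0.62, adjusted p = 0.0368) was lost without Givinostat mouse 31, 34 or 35 or naive wt mouse 89 or 95 (adjusted p = 0.0831, 0.0587, 0.0895, 0.0824 and 0.0762), and that of mmu-let-7e-5p (-1.23, adjusted p = 0.0135) without Givinostat mouse 34 or naive wt mouse 89 (0.0669 and 0.0776). In vehicle against naive wt mice the mmu-let-7c-5p call (-0.69, adjusted p = 0.0102) was lost without vehicle mouse 40 or 43 (0.0509 and 0.0530), and in both dosed groups limma kept 1 of the 3 let-7 calls, that of mmu-let-7a-5p. Library totals ended the mmu-let-7c-5p call in vehicle (adjusted p = 0.162) and Givinostat mice (0.296) and the mmu-let-7e-5p call in Givinostat mice (0.0705), and with no filter mmu-let-7c-5p was lost in vehicle (0.0831) and Givinostat mice (0.282). In the chromosome 9 cluster the calls therefore pointed in opposite directions, with mmu-miR-100-5p higher and mmu-let-7a-5p lower, while let-7a is also made elsewhere in the genome.

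**Figure D4:**
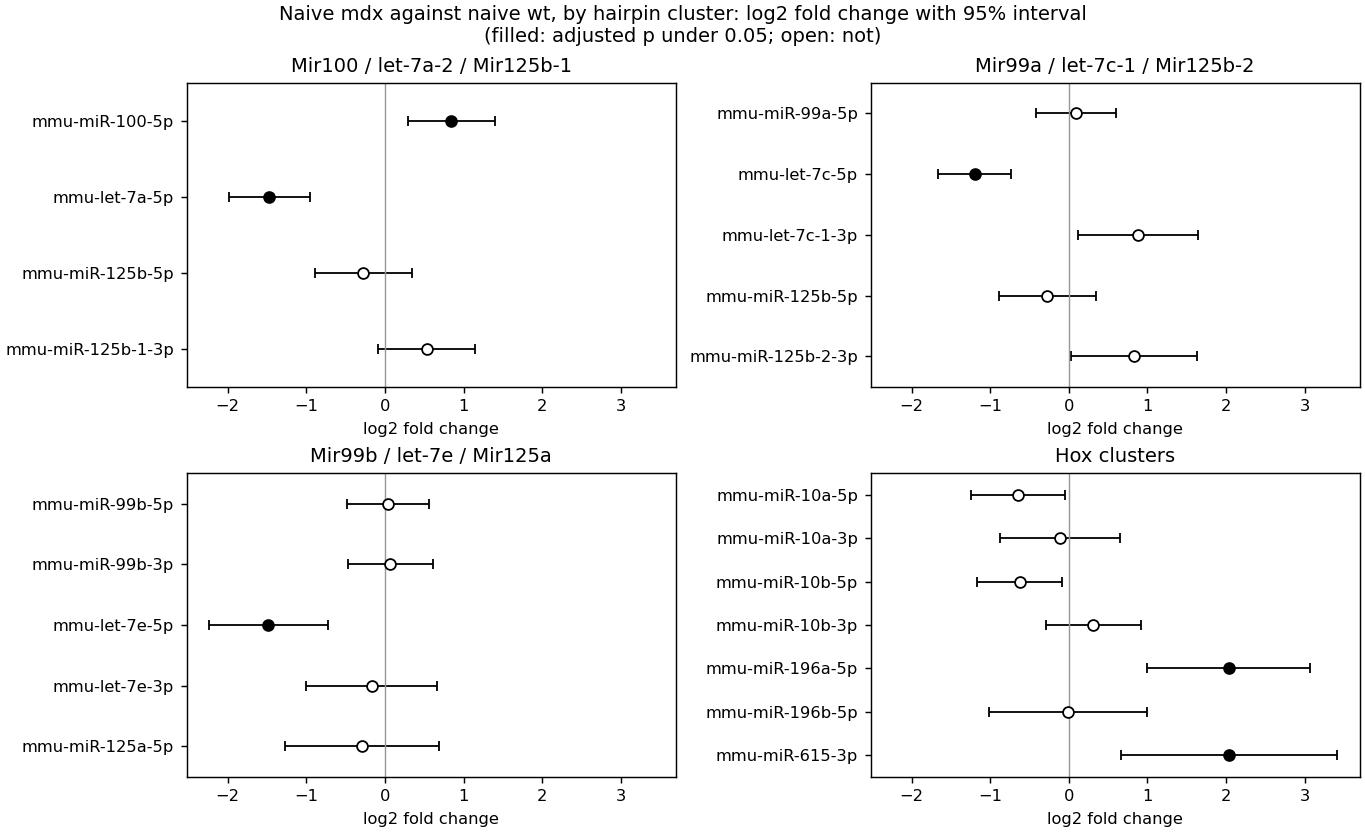
log2 fold change (horizontal axes) in naive mdx against naive wt mice, as points with 95% intervals from edgeR, for the tested arms of the 3 clusters of miR-99/100, let-7 and miR-125 and of the Hox clusters; filled points have an adjusted p under 0.05. The let-7 5p arms lie at -1.47, -1.20 and -1.48, mmu-miR-100-5p at 0.84, and mmu-miR-196a-5p and mmu-miR-615-3p at 2.03 and 2.04 beside miR-10 values of -0.65 and -0.63.

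Among other miRNAs of the Hox clusters the calls were upward. Of 7 listed, 3 were tested, and in naive mdx against naive wt mice 2 of them were called higher and 0 lower. Of all 368 miRNAs 26.9% were called higher there and 16.6% lower. In vehicle and in Givinostat against naive wt mice 1 of the 3 was called higher (24.2% and 22.6% of all). In both comparisons 0 were called lower (23.1% and 11.7% of all). mmu-miR-196a-5p, which is known to act on Hox messages, had 30.7, 119.5 and 58.1 CPM in naive mdx mice, against 8.23, 23.7 and 18.3 CPM in naive wt mice. It was 4.09-fold higher (log2 fold change 2.03, SE 0.49, adjusted p = 0.00344), and it was called in vehicle (log2 fold change 3.01, adjusted p = 0.000114) and Givinostat mice (2.03, adjusted p = 0.00454) as well, in every alternative. mmu-miR-615-3p, also encoded in a Hox cluster, had 1238, 344 and 605 CPM in naive mdx mice, against 312, 131 and 89.9 CPM in naive wt mice (log2 fold change 2.04, SE 0.65, adjusted p = 0.0179). The call was lost without naive mdx mouse 36, naive wt mouse 89 or naive wt mouse 95, with an adjusted p of 0.0775, 0.0688 and 0.0807. Against naive wt mice, mmu-miR-615-3p did not pass in vehicle (log2 fold change 1.23, edgeR adjusted p = 0.102) or Givinostat mice (0.35, adjusted p = 0.680). For mmu-miR-196b-5p the log2 fold change was -0.01 (SE 0.48, adjusted p = 0.989), and 0.34 with library totals. The seed relative of miR-125, mmu-miR-351-5p, stood at 0.61 (SE 0.35, adjusted p = 0.158), and its 3p arm 0.75 (adjusted p = 0.384).

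Across the 13 libraries the miRNAs with the profile most like mmu-miR-100-5p were mmu-miR-181a-2-3p (Pearson r = 0.94 of log2 CPM), mmu-miR-29c-5p (0.90) and the muscle miRNA mmu-miR-133a-3p (0.90). For mmu-miR-10a-5p they were mmu-miR-485-5p (0.79), mmu-miR-485-3p (0.73) and mmu-miR-224-5p (0.73). For mmu-miR-10b-5p, mmu-miR-485-5p (0.68) was followed by both arms of the liver miRNA miR-122 (0.66 for mmu-miR-122-3p and 0.65 for mmu-miR-122-5p). mmu-miR-99a-5p was most like mmu-miR-1947-5p (0.84), mmu-miR-361-3p (0.66) and mmu-miR-125b-1-3p (0.64). mmu-miR-99b-5p was most like mmu-miR-700-3p (0.86), mmu-miR-486a-3p (0.79) and mmu-miR-351-5p (0.76). mmu-miR-125a-5p was most like mmu-miR-342-3p (0.80), mmu-miR-484 (0.78) and mmu-miR-130b-5p (0.76), and mmu-miR-125b-5p like mmu-miR-874-3p (0.72), mmu-miR-339-5p (0.69) and mmu-miR-700-3p (0.68). Among the 7 themselves, mmu-miR-125a-5p and mmu-miR-125b-5p ran closest together (0.90), ahead of mmu-miR-99b-5p with mmu-miR-125a-5p from the same cluster (0.75) and mmu-miR-10a-5p with mmu-miR-10b-5p (0.66). mmu-miR-99a-5p and mmu-miR-100-5p stood at 0.37. These r values describe 13 libraries that share depth, scaling and the difference between genotypes.

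Marker miRNAs of other sources differed in how far they moved with the genotype. In naive mdx against naive wt mice, 6 of 7 muscle miRNAs were called higher (median log2 fold change 4.26) and all 4 liver miRNAs lower (-2.70). Of 4 red blood cell miRNAs 3 were called lower and mmu-miR-486a-5p, which muscle also expresses, higher. Of 4 leukocyte and platelet miRNAs 1 was called lower, of 2 endothelial miRNAs 1, and of 3 fibroblast miRNAs both of those tested. Of all 368 miRNAs 26.9% were called higher and 16.6% lower in this comparison. Single calls in the short leukocyte and endothelial lists therefore mark no result about those sources. The leukocyte miRNA mmu-miR-223-3p stood at 0.04 on the log2 scale (edgeR adjusted p = 0.937). The summed share of the fibroblast list was 0.0340 to 0.0544% in naive mdx and 0.0790 to 0.132% in naive wt mice, and mmu-miR-199a-3p had 1 count in naive wt mouse 89 and 0 in every other library. The part of muscle, liver or blood cells in the levels of the 7 miRNAs was not tested.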

How the data were processed

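Small RNA libraries were made from the plasma of 13 mice with the NEBNext small RNA kit and sequenced on an Illumina NextSeq. Per the labels' processing notes the authors used bcl2fastq 1.37.0, cutadapt 1.4.2 and Bowtie 1.0.0 with mm10. Their methods name Trimmomatic for trimming, GRCm38 and miRBase, and sum all isomiRs of a mature miRNA. The authors deposited these sums as raw counts, which were used for all main results. They also deposited log2 values, which equal the log2 of the counts plus 1 constant per library, with counts of 3 or fewer missing. On the linear scale these values add up to the same total in every library, so they are scaled by totals and not by TMM. The log2 values entered only the limma alternatives (missing as 0, pseudocount 1 or 5), which therefore change the scaling as well as the test.

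Counts were filtered with filterByExpr (minimum count 10), scaled by TMM and fitted with edgeR 4.0.16 (glmQLFit, 1 mean per group over 13 libraries, no covariate), with 5 contrasts and Benjamini-Hochberg adjustment over 368 miRNAs. A call is an adjusted p under 0.05. The code was tested on simulated data. Intervals are 95% intervals of that fit. Ratios and summed shares were tested by two-sided exact permutation (scipy 1.17.1), adjusted over 24 and 4 tests. Alternatives used RLE or upper-quartile factors, library totals, no miR-122-5p, no filter or a mean of 10 CPM, DESeq2 1.42.0, 2 groups only, the older edgeR fit, limma 3.58.1, and each library left out. The 7 miRNAs, the ratios and the lists were chosen with earlier results of these data known. Named from each list were up to 4 tested miRNAs with the highest mean count (plus mmu-let-7c-1-3p, named after its value was seen), and for each of the 7 the 3 others with the highest Pearson r. Totals ran between 1167161 and 2899315 counts. Nothing in the labels says that libraries were technical repeats; each animal has its own number, and none of the 15 pairs within groups was a copy (lowest chi-square divided by its degrees of freedom 126.5).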

Additional observations from a re-analysis of the deposited data

Results flagged for a closer look

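In the vehicle group the log2 ratio of mmu-miR-125a-5p to mmu-miR-125b-5p was -0.68 in mouse 43, while the nearest of the other vehicle mice stood at -1.33. The gap made up most of the range of the 4 mice, beyond what Dixon's test allows at the 95% level. Of 27 sets of vehicle values tested in this way it was the only 1 to pass, and chance passes about 1 in 20.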

How the results depend on the processing

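The number of the 7 miRNAs called in naive mdx against naive wt mice was 1. It became 2 with upper-quartile factors, without miR-122-5p and with a mean of at least 10 CPM, 0 with no filter and with 2 groups only, and 0 to 2 as single libraries were left out. In vehicle against naive wt mice it was 2, and 3 with upper-quartile factors, 1 with library totals, no filter, DESeq2 and limma at either pseudocount, with 1 to 2 over the libraries left out. In Givinostat against naive wt mice it was 1, and 0 to 1 over the libraries left out. Of the fold changes that the text gives miRNA by miRNA, these reversed on the log2 scale, none of them past the threshold in either fit. In naive mdx against naive wt mice, upper-quartile factors gave -0.14 for mmu-miR-99a-5p, -0.20 for mmu-miR-99b-5p and -0.15 for mmu-miR-99b-3p, and the fit of 2 groups -0.038 for mmu-miR-99b-5p. Library totals gave 0.23 for mmu-miR-125a-5p, 0.14 for mmu-miR-125b-5p, 0.19 for mmu-let-7e-3p and 0.34 for mmu-miR-196b-5p. Limma at pseudocounts 1 and 5 gave 0.048 and 0.048 for mmu-miR-125b-5p, 0.13 and 0.11 for mmu-let-7e-3p, and 0.38 and 0.28 for mmu-miR-196b-5p. Over the libraries left out the ranges were -0.027 to 0.19 for mmu-miR-99a-5p, -0.11 to 0.14 for mmu-miR-99b-5p, -0.047 to 0.27 for mmu-miR-99b-3p, -0.37 to 0.13 for mmu-let-7e-3p, -0.27 to 0.20 for mmu-miR-196b-5p and -0.33 to 1.22 for mmu-miR-351-3p. In vehicle against naive mdx mice mmu-miR-10a-5p was 0.012 with no filter and -0.17 to 0.14 over the libraries left out, and mmu-miR-100-5p -0.0047 and -0.0047 with limma. In Givinostat against vehicle mice mmu-miR-10b-5p was -0.016 with library totals, -0.0097 with 2 groups and -0.16 to 0.13 over the libraries left out, which gave -0.21 to 0.40 for mmu-miR-10a-5p and -0.086 to 0.14 for mmu-miR-99a-5p. Of the 7 miRNAs not given singly, mmu-miR-99a-5p, mmu-miR-125a-5p and mmu-miR-125b-5p took both signs in vehicle against naive wt mice, mmu-miR-99b-5p in Givinostat against naive wt mice, and mmu-miR-99a-5p, mmu-miR-99b-5p and mmu-miR-125a-5p in vehicle against naive mdx mice. The summed share differed by -7.58 percentage points in naive mdx against naive wt mice without miR-122-5p and by -3.29 without the muscle and liver lists, and over all mdx mice by -7.98 and -2.27. It differed by 1.19 in vehicle against naive mdx mice without those lists (-1.48 to 0.132 over the libraries left out) and by -0.197 in Givinostat against vehicle mice without miR-122-5p (-0.519 to 0.869 over the libraries left out). The causes were not tested, beyond the smaller totals that the shares were divided by. No ratio passed after adjustment under any alternative, and none of the 6 ratios over all mdx mice against naive wt mice changed direction, nor did that of mmu-miR-99a-5p to mmu-let-7c-5p in vehicle against naive mdx mice. No paired analysis was possible because the groups share no animal numbers. Depth did not limit the 7 miRNAs, whose lowest count was 873; the number of mice did.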
